A study of Mus musculus with 36 samples.

Results

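The comparison described here was between mouse fibroblast-like chondrocytes depleted of *Ift88* with a pool of siRNA (IFT88siRNA) and the same cells given a non-targeting siRNA pool (NT), after 1 h with IL-1β at 10 ng/ml. It took 6 of the 36 libraries of the series, chosen by their labels, with 3 libraries for each siRNA. All cells were of a wild-type, conditionally immortalised chondrocyte line, were transfected at less than full density with 50 nM of siRNA as the labels give it (the study's methods give a lower dose), and were grown to confluence before the cytokine was added. Libraries of the same siRNA groups at 0 h, in medium with no IL-1β and again 3 for each siRNA, are given beside the 1 h values where they bear on them. Poly(A) RNA was sequenced, and the values below are CPM, the read count of a gene over the total of its library, scaled with TMM factors over the 12 libraries of 0 h and 1 h. A difference is a log2 fold change of IFT88siRNA over NT, from the edgeR quasi-likelihood test across all genes. The standard error (SE) beside it was worked back from that test, as the absolute log2 fold change over the square root of the F statistic. A gene was called higher or lower when its Benjamini-Hochberg adjusted p was under 0.05 and its fold change over 1.5.

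IFT88 is a core subunit of intraflagellar transport complex B (IFT-B), the particle that carries cargo along the axoneme and that cells need to build a primary cilium. IL-1β binds IL-1R1 and its co-receptor IL-1RAP, and the adaptor MyD88 passes the signal to IRAK kinases and TAK1. From there IKK removes the IκB inhibitors that hold NFκB in the cytoplasm, and the MAP kinases switch on AP-1 and other immediate early genes. In cartilage cells these arms drive chemokines, cytokines, adhesion molecules and, later, the enzymes that break down matrix, and IκB and A20 genes induced by NFκB close the loop.

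The model has limits that come with its design. An siRNA pool lowers a transcript and does not remove it, the cells are a single immortalised line, and the labels do not say whether the 3 libraries of a group came from separate cultures, so the p-values measure the spread between these libraries, which may be technical. In bulk RNA, fewer cells that use a gene and less of its RNA per cell cannot be told apart. In NT at 1 h the summed CPM of the fibroblast marker list ran from 17500 to 18200 and that of the chondrocyte marker list from 496 to 535. The single genes that follow are examples, and CPM is not scaled for gene length. In the length-scaled TPM values the 3 NT libraries at 1 h averaged 2750 for *Vim*, 1440 for *Fn1* and 983 for *Col1a2*, against 11 for *Sox9*, 19.2 for *Comp*, 2.81 for *Col2a1* and 0.0914 for *Acan*, the aggrecan gene. Of other cell types, the leukocyte gene *Ptprc* stood at 0.039 TPM, the endothelial *Pecam1* at 0.219 and the epithelial *Epcam* at 0.262. The summed CPM of the 16 macrophage and leukocyte markers ran from 16.3 to 17.8 in NT and from 17.1 to 18.9 in IFT88siRNA, with *Adgre1* and *Cd3e* at 0 throughout. Of these 16 markers 3 were tested and none was called, and likewise none of the 2 endothelial and 2 epithelial markers that passed the filter on low counts.

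Reads on genes numbered 19337022 to 23736137 in the NT libraries and 24636891 to 27468632 in the IFT88siRNA libraries at 1 h, so every IFT88siRNA library was the deeper, and depth goes with the siRNA; its part in the results was not tested. The first principal component of the 6 libraries held 45.5% of the variance and set NT (-19.2 to -12.1) apart from IFT88siRNA (10.2 to 24.2). The small RNA class took 0.13% of the reads in the highest NT library, replicate 1, and no more than 0.0537% in the other 2.

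The targeted gene was lower in every IFT88siRNA library. *Ift88*, on the plus strand of chromosome 14 (chr14:57424062-57517936, GRCm38), had 10.2, 10.6 and 9.48 CPM in the 3 NT libraries at 1 h and 2.96, 3.2 and 2.89 in the 3 IFT88siRNA libraries, from 184, 236 and 186 and 68, 83 and 68 reads. The groups stood far apart, and the IFT88siRNA mean was 29.9% of NT (log2 fold change -1.74, SE 0.113, adjusted p = 8.09e-08). The gap was there before IL-1β, with means of 9.38 CPM in NT and 2.86 in IFT88siRNA at 0 h.

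Around that change, calls were few and nearly all in 1 direction. Of 53421 genes counted, 14797 passed the filter on low counts, and 27 of them (0.182%) were called higher and 366 (2.47%) lower in IFT88siRNA. Without the fold threshold 1294 genes were higher and 1514 lower at the same adjusted p, and 4800 had an unadjusted p under 0.05, so most of the differences that passed the test were small. The scaling sets the centre of the differences near 0, and the median log2 fold change over all genes tested was 0.0004. The genes called lower were weakly expressed, with a median of 2.61 CPM in NT against 24.3 over all genes tested, and 167 of the 366 reached a mean of 50 reads. The 3 IFT88siRNA libraries lay below the 3 NT libraries without overlap for 353 of the 366, a separation seen in 17.4% of all genes tested. They lay above for 26 of the 27, as for 18.7% of all genes. At the fold threshold, *Gm12610* at -0.59 and *Tlr2* at -0.59 were the members just inside and *Pacs2* at -0.58 lay just outside.

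**Figure D1:**
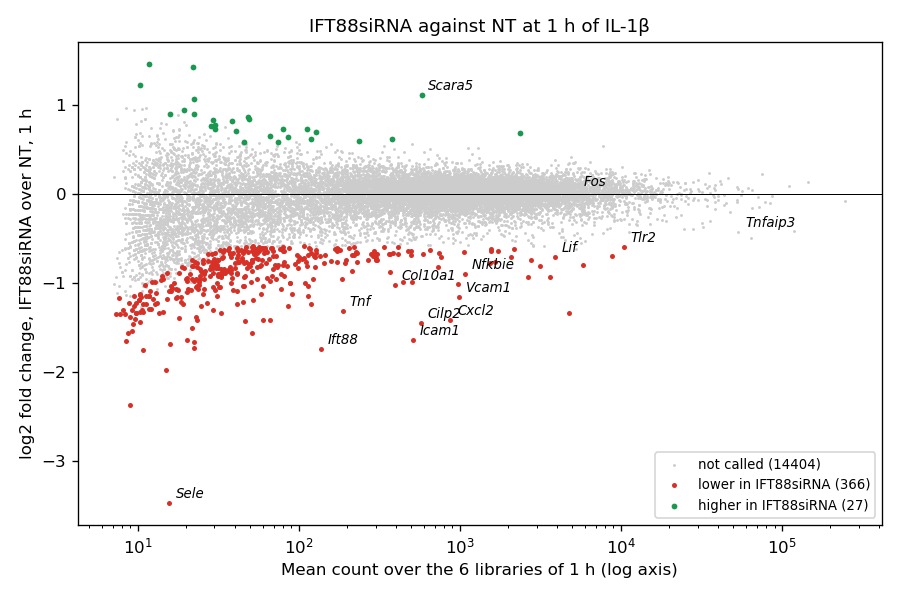
Each point is a gene tested at 1 h. The x axis is its mean read count over the 6 libraries of 1 h (log scale). The y axis is its log2 fold change of IFT88siRNA over NT. The 366 genes called lower and the 27 called higher are coloured, and most of the coloured points lie at low counts and below 0.

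The number of falls depended on single libraries. NT replicate 3 and IFT88siRNA replicate 1 weighed most, with 212 genes called lower without the former and 198 without the latter, against 280 to 429 without any other single library. The calls also went with gene class. Of the genes that the annotation holds as TEC, transcribed regions still to be tested by experiment, 39 of 242 tested were lower (16.1%), as were 43 of 368 antisense genes (11.7%) and 27 of 306 lincRNA genes (8.82%), and none of these was higher. Of the protein-coding genes other than the clustered histones, 205 of 12570 were lower (1.63%) and 20 higher (0.159%), with a median log2 fold change of 0.0069. TEC genes took 0.0598% to 0.0615% of the reads in the NT libraries and 0.0443% to 0.0523% in the IFT88siRNA libraries, antisense genes 0.129% to 0.132% against 0.109% to 0.119%, and lincRNA genes 0.231% to 0.239% against 0.187% to 0.199%. The groups did not overlap for any of the 3 classes, and the order was the same at 0 h (0.071% to 0.0745% against 0.0584% to 0.0624% for TEC). Counting ignored strand, so reads on an antisense gene cannot be told from those of its partner. With the log2 share of TEC, antisense and sense-intronic reads as a covariate over the 36 libraries, an alternative added after the data were seen, 149 genes were called lower, 107 of them among the 366, and 118 of the 149 were protein-coding genes other than histones. Without that covariate the 36 libraries gave 266 falls. With the covariate *Icam1* stood at -1.65, *Vcam1* at -1.20, *Cxcl2* at -1.29 and *Tnf* at -0.98, all still called.

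**Figure D2:**
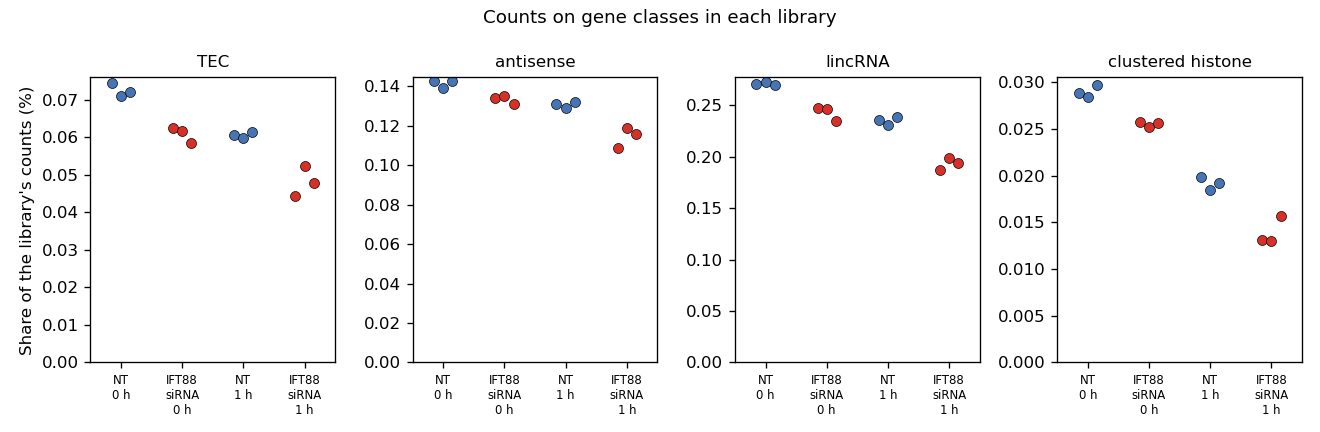
The share of all reads on genes (%) taken by TEC, antisense, lincRNA and clustered histone genes is shown for each library of the 4 groups at 0 h and 1 h. In every panel the IFT88siRNA libraries at 1 h lie below the NT libraries at 1 h, as for TEC genes at 0.0443% to 0.0523% against 0.0598% to 0.0615%.

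Promoters of some leading genes are printed here. They are the 300 bases from 250 before to 50 after a RefSeq transcript start in GRCm38.p6, 5′ to 3′ on the gene's strand, for the first rises and falls with a matched promoter. *Cxcl2*, *Nfkbid* and *Tnf* were added after their values were seen. Of these only the windows with a motif match are printed. Capitals mark a match to the κB consensus, to the palindrome GGAANTTCC, which can overlap it, or to the cAMP response element TGACGTCA. Of the 20 leading genes 14 had a promoter in the reference. *Icam1* lies at chr9:21015690-21015989 (+), *Cxcl2* at chr5:90903649-90903948 (+), the middle of 3 *Nfkbid* windows at chr7:30422156-30422455 (+) and *Ift88* at chr14:57423821-57424120 (+). Of the rises, *N4bp2l1* lies at chr5:150594476-150594775 (-) and the 2 windows of *Sh3bp5* at chr14:31436051-31436350 (-) and chr14:31417628-31417927 (-).
Icam1: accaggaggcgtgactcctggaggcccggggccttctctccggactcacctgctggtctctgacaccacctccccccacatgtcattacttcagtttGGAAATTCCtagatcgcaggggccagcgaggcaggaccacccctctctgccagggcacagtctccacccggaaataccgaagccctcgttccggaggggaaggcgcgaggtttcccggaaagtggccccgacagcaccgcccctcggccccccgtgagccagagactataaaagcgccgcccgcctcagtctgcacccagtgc
Cxcl2: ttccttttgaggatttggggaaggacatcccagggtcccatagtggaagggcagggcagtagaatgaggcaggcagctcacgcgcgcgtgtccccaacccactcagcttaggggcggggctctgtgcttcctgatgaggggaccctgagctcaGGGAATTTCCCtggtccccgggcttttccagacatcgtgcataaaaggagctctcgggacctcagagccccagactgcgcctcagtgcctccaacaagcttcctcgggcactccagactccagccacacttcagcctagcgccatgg
Nfkbid: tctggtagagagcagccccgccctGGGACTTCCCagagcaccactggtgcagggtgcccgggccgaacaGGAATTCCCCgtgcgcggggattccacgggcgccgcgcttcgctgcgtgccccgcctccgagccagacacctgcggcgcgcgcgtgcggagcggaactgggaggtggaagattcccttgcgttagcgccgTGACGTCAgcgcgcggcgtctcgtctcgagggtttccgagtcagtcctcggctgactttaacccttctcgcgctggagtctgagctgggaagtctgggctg
Ift88: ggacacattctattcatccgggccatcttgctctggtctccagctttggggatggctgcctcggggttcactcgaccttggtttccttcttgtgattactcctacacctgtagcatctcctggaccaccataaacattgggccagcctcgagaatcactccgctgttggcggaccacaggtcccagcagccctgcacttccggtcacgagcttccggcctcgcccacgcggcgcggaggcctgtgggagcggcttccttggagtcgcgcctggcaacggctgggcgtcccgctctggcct
N4bp2l1: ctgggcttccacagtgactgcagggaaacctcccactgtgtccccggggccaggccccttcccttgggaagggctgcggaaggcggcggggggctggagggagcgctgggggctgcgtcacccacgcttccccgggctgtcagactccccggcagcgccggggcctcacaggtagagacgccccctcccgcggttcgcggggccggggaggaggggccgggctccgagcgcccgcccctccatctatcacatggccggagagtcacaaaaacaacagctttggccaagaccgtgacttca
Sh3bp5, first window: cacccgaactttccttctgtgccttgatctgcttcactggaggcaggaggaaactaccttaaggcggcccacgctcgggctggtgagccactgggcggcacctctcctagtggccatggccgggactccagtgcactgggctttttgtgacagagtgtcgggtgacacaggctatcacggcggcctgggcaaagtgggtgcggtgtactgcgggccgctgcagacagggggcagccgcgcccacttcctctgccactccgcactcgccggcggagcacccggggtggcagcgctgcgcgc
Sh3bp5, second window: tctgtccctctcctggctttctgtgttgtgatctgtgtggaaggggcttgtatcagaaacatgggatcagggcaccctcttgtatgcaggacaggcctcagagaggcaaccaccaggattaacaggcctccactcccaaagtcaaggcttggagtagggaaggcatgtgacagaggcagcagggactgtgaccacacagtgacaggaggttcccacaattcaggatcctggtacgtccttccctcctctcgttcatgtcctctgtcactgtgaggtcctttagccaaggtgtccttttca

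The *Cxcl2* window held the κB consensus, read on both strands of 1 palindromic stretch. The middle *Nfkbid* window held 2 separate κB matches and 1 cAMP response element. The *Icam1* window held the GGAANTTCC palindrome and no match to the stricter κB consensus. The *Ift88*, *N4bp2l1* and *Sh3bp5* windows held none of the motifs. Nor did the *Tnf* window or the outer *Nfkbid* windows, which are not printed. Over all genes tested, 5.31% of 13191 windows held the κB consensus on either strand, 0.993% GGAANTTCC, 5.32% the AP-1 motif TGANTCA, 2.99% TGACGTCA and 1.34% the CArG box of SRF. Of 246 windows of 196 genes called lower, 11.4% held the κB consensus, 2.85% GGAANTTCC, 11% TGANTCA, 2.85% TGACGTCA and 2.44% the CArG box. Genes higher at 1 h than at 0 h in NT had 1222 windows. Of those, 7.53% held the κB consensus, 1.72% GGAANTTCC, 8.18% TGANTCA, 2.7% TGACGTCA and 3.36% the CArG box. None of the 16 windows of the 11 matched genes called higher held any of the 5. These shares describe letters in a short window, were not tested, and leave out the genes with no window in the reference.

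The gene lists here and below were chosen with earlier results of these data known, so the shares called in them are descriptive only. The falls included leukocyte adhesion genes. Of 8 tested, of 12 listed, 4 were called lower and none higher, against 2.47% lower over all genes tested, with a median log2 fold change of -0.42. *Icam1*, the endothelial and stromal ligand of leukocyte integrins (chr9:21015985-21028817), had 39.2, 29.3 and 43.6 CPM in NT and 12.8, 10.7 and 12.7 in IFT88siRNA at 1 h. The highest IFT88siRNA library was below the lowest NT library, and the mean was 32.2% of NT (log2 fold change -1.64, SE 0.117, adjusted p = 1.94e-07). *Vcam1*, the ligand of integrin α4β1, had 65.7, 52.7 and 75 CPM in NT and 31.7, 24 and 31.6 in IFT88siRNA, again with no overlap (log2 fold change -1.15, SE 0.108, adjusted p = 3.2e-06). *Icam5*, a telencephalic relative of *Icam1*, had 8.89, 6.24 and 7.54 against 4.3, 4.05 and 4.46 (log2 fold change -0.82, SE 0.134, adjusted p = 0.000591). E-selectin, *Sele*, which captures rolling leukocytes, rested on few reads, 24, 17 and 44 in NT and 2, 3 and 4 in IFT88siRNA (log2 fold change -3.46, SE 0.491, adjusted p = 0.000187). The junctional genes were not called, among them *F11r* at 0.12 (adjusted p = 0.11). At 0 h neither *Icam1* nor *Vcam1* was called, at means of 3.66 and 3.16 CPM for the former and 12 and 12 for the latter.

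**Figure D3:**
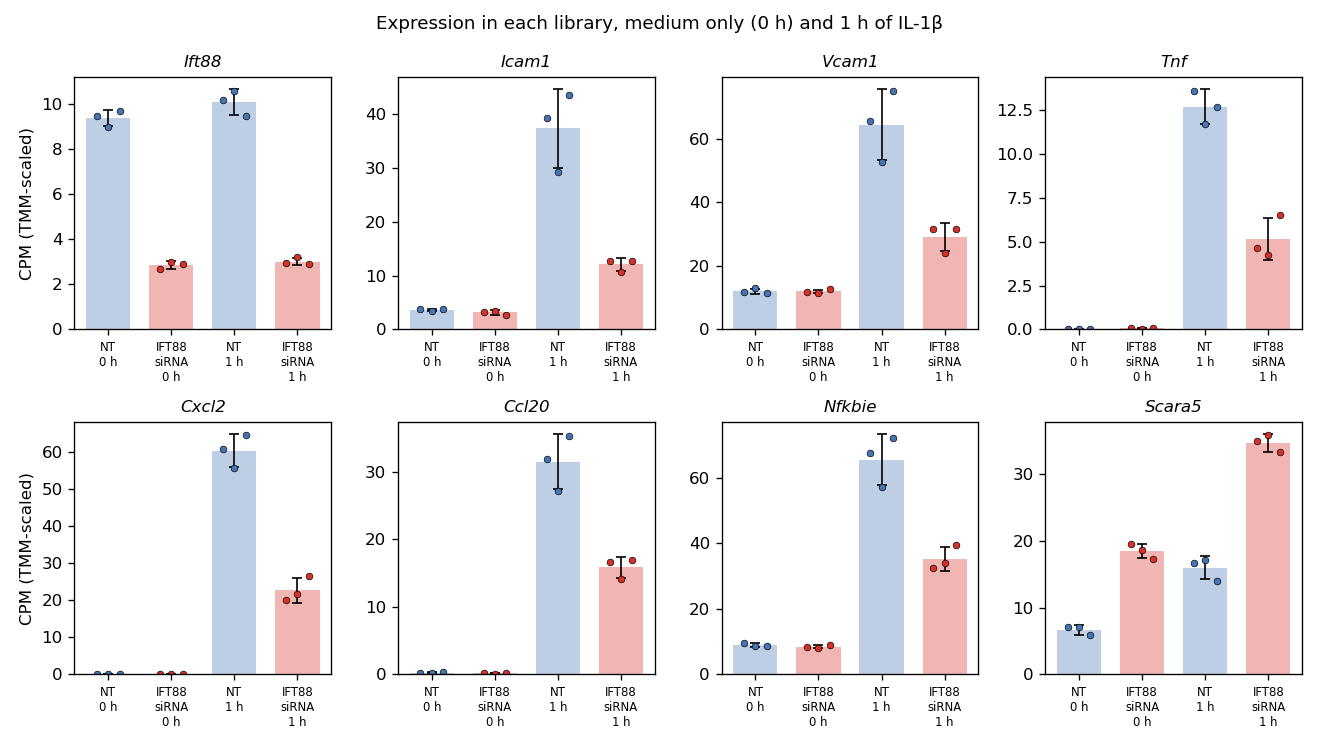
Levels in CPM (linear axes from 0) of 8 genes are shown for each library of the 4 groups, with bars for the mean of 3 libraries and error bars for the SD. *Icam1*, *Vcam1*, *Tnf*, *Cxcl2*, *Ccl20* and *Nfkbie* are high in NT at 1 h and lower in each IFT88siRNA library, *Ift88* is low in IFT88siRNA at both times, and *Scara5* is higher there at both times.

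Of the 18 secreted cytokine genes tested, of 21 listed, 4 were lower and none higher, against 2.47% lower over all genes tested. Of the 18, 15 had a log2 fold change below 0 (median -0.36). *Tnf*, the companion of IL-1β in inflammation, was nearly silent at 0 h (0.0153 and 0.06 CPM on average). At 1 h it had 13.6, 11.7 and 12.7 CPM in NT and 4.65, 4.25 and 6.51 in IFT88siRNA, 40.3% of NT (log2 fold change -1.31, SE 0.129, adjusted p = 5.64e-06), with the groups well apart. *Csf2*, which encodes GM-CSF, had 26, 15 and 28 reads in NT and 6, 4 and 11 in IFT88siRNA (log2 fold change -1.98, SE 0.403, adjusted p = 0.00299). *Lif*, an IL-6 family cytokine, had 216, 194 and 266 CPM against 128, 130 and 159 (log2 fold change -0.71, SE 0.0904, adjusted p = 8.31e-05). *Ifnb1*, the interferon β gene, had 4.2, 3.95 and 5.3 against 2.43, 2.78 and 3.44 (log2 fold change -0.64, SE 0.163, adjusted p = 0.0126). Neither overlapped between groups, but both calls rested on single libraries. Without NT replicate 3 *Lif* stood at -0.57, under the fold threshold, and *Ifnb1* at -0.50 (adjusted p = 0.0769). Without IFT88siRNA replicate 1 *Ifnb1* stood at -0.53 (adjusted p = 0.0547). *Csf1*, the macrophage growth factor and the most abundant gene of the list, was lower by less than the fold threshold, at 3450, 3150 and 3740 CPM against 2340, 2380 and 2660 (log2 fold change -0.49, SE 0.0553, adjusted p = 2.52e-05). *Il6* was low and overlapped between groups, at 3.09, 2.87 and 3.31 CPM in NT and 1.91, 2.97 and 2.85 in IFT88siRNA (log2 fold change -0.26, SE 0.179, adjusted p = 0.345). *Csf3*, which encodes G-CSF, was less abundant still, at 0.939, 0.763 and 1.22 CPM in NT and 0.652, 0.463 and 1.15 in IFT88siRNA (log2 fold change -0.38, SE 0.33, adjusted p = 0.463).

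Of the CXC and CX3C chemokine genes, which chiefly draw neutrophils and lymphocytes, 4 of 11 tested were lower and none higher. The share over all genes tested was 2.47% lower, and 10 of the 11 lay below 0 (median -0.41). *Cxcl2*, a neutrophil attractant, had 60.8, 55.5 and 64.4 CPM in NT and 20, 21.6 and 26.4 in IFT88siRNA, 37.5% of NT with no overlap (log2 fold change -1.41, SE 0.0806, adjusted p = 2.07e-08). Its neighbour *Cxcl1* was far more abundant and much less affected, at 1510, 1390 and 1510 CPM against 1140, 1080 and 1140, which did not overlap but stayed under the fold threshold (log2 fold change -0.40, SE 0.0397, adjusted p = 7.16e-06). *Cxcl3* had 1.22, 1.08 and 2.14 against 0.652, 0.154 and 0.638 CPM (log2 fold change -1.64, SE 0.386, adjusted p = 0.0078) and *Cxcl5* 7.84, 5.88 and 9.83 against 5.43, 4.13 and 4.98 (log2 fold change -0.70, SE 0.16, adjusted p = 0.00677). *Cxcl11*, a ligand of CXCR3, had 3.48, 2.33 and 3.57 against 1.78, 1.97 and 2.3 (log2 fold change -0.62, SE 0.193, adjusted p = 0.0326). These 3 calls depended on NT replicate 3, the highest NT library for each. Without it *Cxcl3* stood at -1.27 (adjusted p = 0.0515), *Cxcl5* at -0.49 and *Cxcl11* at -0.51 (adjusted p = 0.145). *Cxcl11* was also not called without NT replicate 1 (-0.54, adjusted p = 0.125), IFT88siRNA replicate 1 (-0.54, 0.102) or IFT88siRNA replicate 2 (-0.60, 0.0621). *Cxcl12*, a homeostatic chemokine, was the one member above 0, at 24.1, 24.6 and 20.4 CPM in NT and 26.5, 27.2 and 26.1 in IFT88siRNA (log2 fold change 0.20, SE 0.0712, adjusted p = 0.0552).

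Of 16 CC chemokine genes, which draw monocytes and T cells, 8 were tested and 3 were lower, with none higher. Over all genes tested 2.47% were lower, and the median of the list was -0.40. *Ccl20*, the ligand of CCR6, had 31.9, 27.2 and 35.3 CPM in NT and 16.7, 14.2 and 17 in IFT88siRNA, with no overlap (log2 fold change -0.99, SE 0.0913, adjusted p = 2.9e-06). *Ccl5* had 88, 81.6 and 94.2 against 52.9, 56.1 and 63.4 CPM (log2 fold change -0.62, SE 0.0626, adjusted p = 7.95e-06) and *Ccl9* 9.5, 8.53 and 11.4 against 6.78, 6.14 and 6.29 (log2 fold change -0.62, SE 0.113, adjusted p = 0.00147), also without overlap and both close to the fold threshold. Without NT replicate 3 they stood at -0.56 and -0.49 and were not called, nor was *Ccl5* without IFT88siRNA replicate 1 (-0.56) or *Ccl9* without IFT88siRNA replicate 2 (-0.58). The monocyte attractants that were most abundant were not called. *Ccl2* had 914, 868 and 958 CPM against 766, 709 and 774 (log2 fold change -0.29, SE 0.0435, adjusted p = 0.000306), while *Ccl7*, beside it in the same cluster, had 224, 216 and 224 against 273, 226 and 253 and lay on the other side of 0 (log2 fold change 0.17, SE 0.0537, adjusted p = 0.0339).

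**Figure D4:**
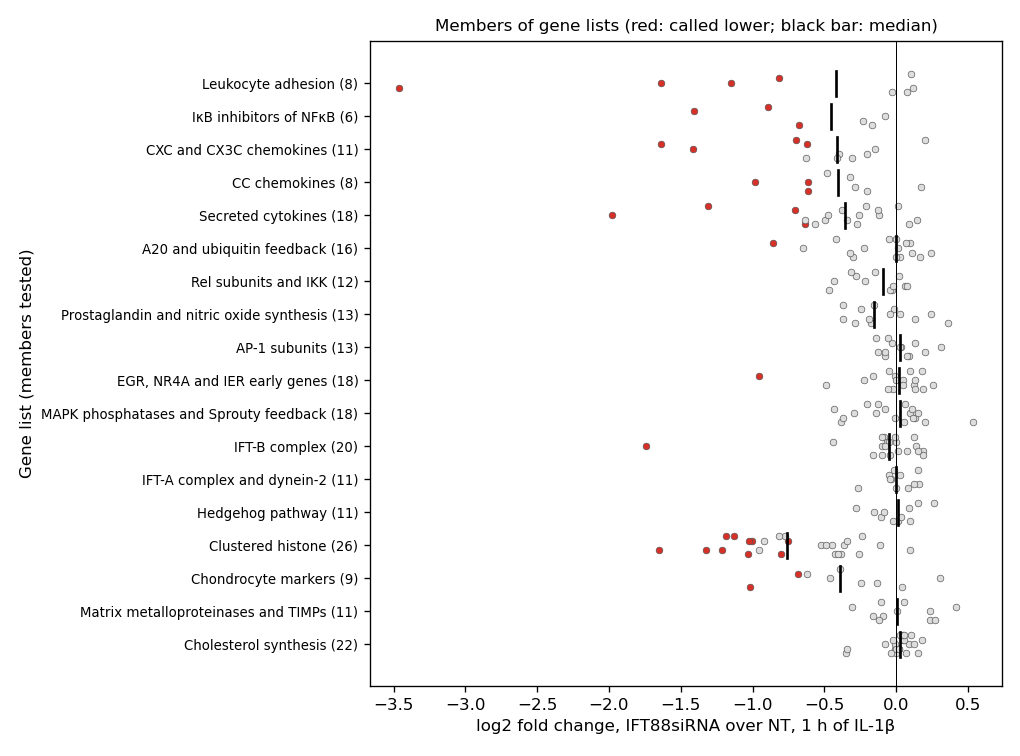
Each row is a gene list and each point a member tested at 1 h, placed by its log2 fold change of IFT88siRNA over NT on the x axis, with members called lower in red and the list's median as a black bar. Adhesion, cytokine, chemokine and IκB lists have medians between -0.36 and -0.45 and hold red points, while the AP-1, EGR and MAPK feedback lists centre near 0.

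Of the IκB genes, several of which NFκB induces against itself, 3 were called lower, against 2.47% of all genes tested. All 6 IκB genes tested lay below 0 (median -0.45), and 5 had an adjusted p under 0.05. *Nfkbie*, which encodes IκBε, had 67.5, 57.1 and 72.2 CPM in NT and 32.5, 34 and 39.4 in IFT88siRNA, with no overlap (log2 fold change -0.89, SE 0.0792, adjusted p = 1.97e-06). *Nfkbid*, a nuclear IκB, had 3.65, 2.96 and 5.81 against 1.65, 1.16 and 1.87 (log2 fold change -1.41, SE 0.243, adjusted p = 0.000898). *Bcl3*, another nuclear IκB that binds p50 and p52, had 18.9, 15.1 and 18.1 against 10.5, 11.6 and 10.5 (log2 fold change -0.67, SE 0.0921, adjusted p = 0.000147), and neither overlapped. The abundant *Nfkbia*, which encodes IκBα, had 912, 930 and 895 against 763, 809 and 765 CPM, lower by less than the fold threshold (log2 fold change -0.23, SE 0.0374, adjusted p = 0.000518), as was *Nfkbiz* at 1890, 1820 and 1890 against 1690, 1640 and 1660 (log2 fold change -0.17, SE 0.0344, adjusted p = 0.00318).

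None of the 12 Rel and IKK genes was called (median -0.09), where 2.47% of all genes tested were lower. In this list 4 were lower at an adjusted p under 0.05 alone, as were 1514 of the 14797 genes tested. *Rela*, the p65 subunit, had 297, 286 and 310 CPM in NT and 234, 240 and 246 in IFT88siRNA, a gap larger than the spread within either group though small (log2 fold change -0.32, SE 0.0408, adjusted p = 8.49e-05). The NFκB-inducible members *Relb* and *Nfkb2* stood at -0.47 and -0.44 (adjusted p = 0.000156 and 0.000137), whereas *Nfkb1* stood at -0.02 (adjusted p = 0.733). Of 16 genes of A20 and ubiquitin feedback 1 was lower, *Traf1*, at 2.6, 2.69 and 4.03 against 1.83, 1.31 and 2.04 CPM (log2 fold change -0.86, SE 0.214, adjusted p = 0.0108), and it was not called without NT replicate 3 (-0.63, adjusted p = 0.0754). *Tnfaip3*, which encodes the ubiquitin-editing enzyme A20, was abundant and did not overlap between groups, at 2820, 2880 and 2730 against 2140, 2160 and 2020, but its difference was under the fold threshold (log2 fold change -0.42, SE 0.0372, adjusted p = 1.98e-06).

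Upstream of these, 1 of 18 IL-1 receptor family and MyD88 signalling genes tested was lower, against 2.47% of all genes (list median 0.0025). That gene was *Il1rl1*, the receptor of IL-33, at 58.5, 55.8 and 68.7 CPM in NT and 30.3, 26.3 and 34.7 in IFT88siRNA (log2 fold change -1.01, SE 0.0855, adjusted p = 1.13e-06), and it was lower at 0 h too, with means of 48.5 and 21.4. The IL-1 receptor itself, *Il1r1*, had 37, 38.7 and 40.4 CPM in NT and 36.1, 34 and 35.6 in IFT88siRNA and was not called (log2 fold change -0.14, SE 0.0546, adjusted p = 0.08). The co-receptor *Il1rap* did not overlap between groups, at 118, 114 and 114 against 82.6, 79.9 and 79.8, with a difference under the fold threshold (log2 fold change -0.52, SE 0.0393, adjusted p = 3.19e-07). The adaptor *Myd88* lay above 0 at 0.22 (SE 0.0477, adjusted p = 0.0045), also under the threshold.

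For the immediate early genes of the MAP kinase arm the levels are given as measured. In lists this short, here and below, no call or a single fall does not stand apart from the share over all genes tested. That share was 2.47% lower and 0.182% higher. None of 13 AP-1 subunit genes tested was called, and their median was 0.03. *Fos* had 233, 258 and 220 CPM in NT and 218, 283 and 229 in IFT88siRNA, overlapping between groups (log2 fold change 0.03, SE 0.0761, adjusted p = 0.797). *Jun* had 638, 677 and 592 against 614, 722 and 616 (log2 fold change 0.03, SE 0.0582, adjusted p = 0.763) and *Junb* 1780, 1730 and 1700 against 1600, 1830 and 1700 (log2 fold change -0.03, SE 0.0445, adjusted p = 0.702), both overlapping too. *Fosb* lay slightly higher in each IFT88siRNA library, at 825, 783 and 760 against 883, 877 and 840 (log2 fold change 0.13, SE 0.0394, adjusted p = 0.0292).

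Among 18 EGR, NR4A and IER genes 1 was called, the neuronal activity gene *Npas4*, which was lower at 11.5, 10.1 and 13 against 4.48, 6.14 and 7.19 CPM (log2 fold change -0.96, SE 0.138, adjusted p = 0.000215), and the median was 0.02. *Egr1* had 1930, 2120 and 1850 CPM in NT and 1790, 2230 and 1860 in IFT88siRNA (log2 fold change -0.01, SE 0.0639, adjusted p = 0.94). The nuclear receptor *Nr4a1* had 1980, 1990 and 1890 against 2260, 2250 and 2170 (log2 fold change 0.18, SE 0.0357, adjusted p = 0.00235), under the fold threshold. Of the MAP kinase phosphatases and Sprouty genes, which switch off ERK, p38 and JNK signalling, none of 18 tested was called. *Dusp1* lay above NT in each IFT88siRNA library and under the fold threshold, at 272, 325 and 243 CPM in NT and 372, 501 and 350 in IFT88siRNA (log2 fold change 0.54, SE 0.106, adjusted p = 0.00245). *Errfi1*, a feedback inhibitor of the EGF receptor, overlapped at 1680, 1670 and 1740 against 1850, 1670 and 1770. None of 13 regulators of mRNA decay was called, among them *Zfp36*, the ARE-binding destabiliser of cytokine mRNA, at 397, 455 and 373 against 350, 462 and 372 CPM (log2 fold change -0.05, SE 0.0809, adjusted p = 0.689). None of 11 Kruppel-like factors was called either, with *Klf10* at -0.39 (adjusted p = 0.000586).

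For prostaglandin and nitric oxide synthesis, no gene of 13 tested was called (median -0.15). *Ptgs2*, the inducible cyclooxygenase COX-2, had 605, 638 and 645 CPM in NT and 572, 558 and 544 in IFT88siRNA, which did not overlap but differed by little (log2 fold change -0.18, SE 0.0381, adjusted p = 0.0041). *Ptges*, the prostaglandin E synthase, was low and overlapped, at 2.49, 2.65 and 3.26 against 2.04, 2.63 and 2.21 CPM (log2 fold change -0.29, SE 0.176, adjusted p = 0.279). *Nos2*, the inducible nitric oxide synthase, did not pass the filter at this time, with 0.166, 0.135 and 0.153 CPM in NT and 0.174, 0.0386 and 0.085 in IFT88siRNA, so a difference was not detectable at this depth.

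Growth factor lists held single calls. *Fgf2* was lower, at 8.78, 10.3 and 9.94 CPM in NT and 6.61, 6.1 and 6.55 in IFT88siRNA (log2 fold change -0.60, SE 0.1, adjusted p = 0.000683), and was lower at 0 h too, with means of 36.6 and 20.1. It was 1 of 4 FGF genes tested. *Areg*, which encodes amphiregulin, was the only call among 8 EGF receptor ligands, at 1.82, 1.84 and 3.57 against 1.17, 1.24 and 1.66 (log2 fold change -0.83, SE 0.262, adjusted p = 0.035), while the most abundant, *Ereg*, overlapped at 745, 816 and 789 against 831, 781 and 773. Both calls were lost without some library. *Fgf2* fell under the fold threshold without NT replicate 2 (-0.55), NT replicate 3 (-0.58) or IFT88siRNA replicate 2 (-0.56). *Areg* was lost without NT replicate 3 (-0.44, adjusted p = 0.275), IFT88siRNA replicate 1 (-0.74, 0.106) or IFT88siRNA replicate 2 (-0.76, 0.0798).

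Clustered histone genes, whose mRNA normally lacks a poly(A) tail and is made in S phase, were among the falls. Of 70 listed 26 passed the filter, 25 of these lay below 0 (median -0.76), and 10 were called lower (38.5%, against 2.47% of all genes tested). *Hist1h2be* had 5.8, 5.07 and 5.76 CPM in NT and 2.52, 2.39 and 3.4 in IFT88siRNA, with no overlap (log2 fold change -1.003, SE 0.15, adjusted p = 0.000285). The linker histones *Hist1h1a*, *Hist1h1b*, *Hist1h1e* and *Hist1h1d* stood at -1.03, -1.21, -1.19 and -0.75, and *Hist1h2ac*, *Hist1h3d*, *Hist1h3i*, *Hist1h4m* and *Hist2h3c2* at -0.80, -1.13, -1.33, -1.65 and -1.03. Together they took 0.0185% to 0.0199% of the reads in NT and 0.013% to 0.0157% in IFT88siRNA at 1 h, and 0.0284% to 0.0297% against 0.0252% to 0.0257% at 0 h. They move with the TEC, antisense and lincRNA shares given above, and the part of library preparation in this was not tested. *Hist1h1d* was not called without IFT88siRNA replicate 2 (-0.52), *Hist1h4m* without NT replicate 3 (-1.40), nor *Hist1h3i* without NT replicate 1 (-1.31), NT replicate 2 (-1.19), IFT88siRNA replicate 2 (-1.31) or IFT88siRNA replicate 3 (-0.995). Of 20 DNA replication genes none was called and 1 lay below 0 (median 0.09), and of 23 mitosis genes none was called and 20 lay below 0, with *Mki67* at -0.29 (adjusted p = 0.00063).

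Among the cartilage genes, *Col10a1* and *Col2a1* were the 2 calls in 9 chondrocyte markers tested (median -0.39). Both were lower, against 2.47% lower over all genes tested. *Col10a1*, the collagen X of hypertrophic cartilage, had 25.1, 24.1 and 25.4 CPM in NT and 12.2, 10.4 and 14.3 in IFT88siRNA, with no overlap (log2 fold change -1.02, SE 0.091, adjusted p = 2.05e-06). *Col2a1*, the main collagen of cartilage, had 7.73, 8.08 and 9.17 against 4.17, 6.41 and 4.93 CPM (log2 fold change -0.68, SE 0.136, adjusted p = 0.00262), means of 20.5 and 12.1 at 0 h, and no call without IFT88siRNA replicate 1 (-0.55). *Acan* did not pass the filter, with 0.552, 0.314 and 0.255 CPM in NT and 0.087, 0.154 and 0.128 in IFT88siRNA. *Cilp2*, a cartilage matrix protein of no list, was among the 10 leading falls, at 43.7, 34.6 and 42.2 CPM in NT and 11.2, 15.4 and 17.5 in IFT88siRNA (log2 fold change -1.45, SE 0.115, adjusted p = 5.21e-07). Of 11 chondrogenic transcription factors 1 was called, the forkhead gene *Foxc2*, at 2.37, 1.26 and 2.5 against 1.17, 0.888 and 0.68 (log2 fold change -1.14, SE 0.283, adjusted p = 0.0105), but not without NT replicate 3 (-0.96, adjusted p = 0.0551). *Sox9*, which drives cartilage identity, was not called at 1 h, with 25, 23.1 and 25.8 CPM in NT and 23.4, 23.2 and 24 in IFT88siRNA (log2 fold change -0.07, SE 0.064, adjusted p = 0.495).

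Of the matrix-degrading enzymes and their inhibitors, none of 11 matrix metalloproteinase and TIMP genes and none of 10 ADAMTS genes tested passed both thresholds, against 2.47% lower and 0.182% higher over all genes. *Adamts5*, the aggrecanase of mouse cartilage, had 281, 298 and 263 CPM in NT and 322, 300 and 297 in IFT88siRNA (log2 fold change 0.12, SE 0.047, adjusted p = 0.0822), and *Mmp14* lay higher at 0.23 (adjusted p = 0.00107), under the fold threshold. *Mmp13* stood at means of 0.627 and 0.598 CPM and was not called, and *Mmp3* did not pass the filter. Of the 24 SRF and YAP target genes 1 was called, the smooth muscle actin *Actg2*, at 35.7, 33.1 and 41.4 against 21.8, 20.1 and 29.9 CPM (log2 fold change -0.62, SE 0.111, adjusted p = 0.00115), with values of -0.53, -0.56 and -0.51 and no call without NT replicate 3, IFT88siRNA replicate 1 and IFT88siRNA replicate 2 in turn. None was called among 16 fibroblast markers, 27 interferon-stimulated genes (median -0.16, 23 below 0), 22 ATF4 and ER stress targets and 22 cholesterol synthesis genes. The fibronectin gene *Fn1* stood at -0.41 (adjusted p = 1.35e-05) and *Irf1* at -0.35 (adjusted p = 6.06e-05). In all, the lists held 631 distinct genes, 489 of them tested. Of these 39 were called lower and 1 higher, against 2.47% and 0.182% of all genes tested. Since the lists were chosen with earlier results of these data known, the gap between these shares is no independent result.

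Other leading falls belonged to no list. *Mir155hg*, the host transcript of miR-155, had 2.71, 3.1 and 5.2 CPM in NT and 1.57, 0.927 and 1.28 in IFT88siRNA (log2 fold change -1.56, SE 0.253, adjusted p = 0.00056). *Pdgfb*, a growth factor of mesenchymal cells, had 4.53, 2.96 and 6.37 against 1.48, 1 and 2.72 (log2 fold change -1.42, SE 0.291, adjusted p = 0.00322). The homeobox gene *Pbx4* had 5.25, 5.03 and 6.93 against 2.26, 2.28 and 2.68 (log2 fold change -1.25, SE 0.157, adjusted p = 7.09e-05). Leading falls were picked from genes with no overlap between groups, so their separation follows from that rule. *Gm23935*, a short gene of the miRNA class, rested on a single library, since its NT values were 618, 225 and 142 CPM and its IFT88siRNA values 118, 141 and 132 (log2 fold change -1.34, SE 0.323, adjusted p = 0.00902). Without NT replicate 1 it stood at -0.50 and was not called.

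Rises were few and milder. The leading ones were likewise picked from genes with no overlap between groups. *Scara5*, a ferritin receptor of mesenchymal cells, had 16.7, 17.1 and 14 CPM in NT and 35, 35.9 and 33.3 in IFT88siRNA (log2 fold change 1.12, SE 0.0735, adjusted p = 8.26e-08), and was higher at 0 h too, with means of 6.71 and 18.5. The matricellular gene *Sparcl1* had 3.2, 4.13 and 3.72 against 5.91, 6.22 and 6.46 (log2 fold change 0.74, SE 0.127, adjusted p = 0.000901) and *N4bp2l1* 2.43, 2.83 and 2.7 against 4.39, 4.71 and 4.21 (log2 fold change 0.73, SE 0.141, adjusted p = 0.00207). *Sh3bp5*, a JNK-binding scaffold, had 4.14, 4.22 and 4.59 against 6.39, 7.84 and 6.85 (log2 fold change 0.70, SE 0.121, adjusted p = 0.000912). *Sparcl1*, *N4bp2l1* and *Sh3bp5* were not called in the alternative tests on TPM, where *Sh3bp5* stood as low as 0.34.

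A further 5 leading rises had log2 fold changes from 0.60 to 0.66 and were each lost without some library. *Lgals2* stood at 0.51, 0.58 and 0.59 without NT replicate 3, IFT88siRNA replicate 1 and IFT88siRNA replicate 3, *Kank4* at 0.57 without IFT88siRNA replicate 2, and *Rnf150* at 0.51 without IFT88siRNA replicate 1. *Lgals2*, *Kank4* and *Rnf150* were also not called on TPM, where *Rnf150* stood as low as 0.0375. *Rtn4r* stood at 0.53 and 0.55 without NT replicate 3 and IFT88siRNA replicate 2, and *Rab3il1* at 0.53, 0.56 and 0.58 without NT replicate 3, IFT88siRNA replicate 1 and IFT88siRNA replicate 2. The 1 list member called higher was *Lpl*, lipoprotein lipase, of 4 adipocyte markers tested, at 1.05, 1.57 and 1.43 CPM in NT and 2.43, 2.08 and 2.21 in IFT88siRNA (log2 fold change 0.71, SE 0.202, adjusted p = 0.0224). It was not called without NT replicate 1 (0.57, adjusted p = 0.105), NT replicate 3 (0.74, 0.0543) or IFT88siRNA replicate 1 (0.65, 0.071). Of these rises, *Sparcl1*, *Lgals2*, *Kank4*, *Rnf150*, *Rtn4r*, *Rab3il1* and *Lpl* were not called with the read-class share as a covariate. There *Sparcl1* stood at 0.57 and *Lpl* at 0.68 (adjusted p = 0.0898).

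In the rest of the ciliary machinery the lists are too short for a count of 0 to stand apart from the 2.47% lower and 0.182% higher over all genes. Of 20 IFT-B genes tested *Ift88* was the single call, and the list's summed level was 737 to 743 CPM in NT and 703 to 733 in IFT88siRNA. *Ift80* stood at -0.16 (adjusted p = 0.0358) and *Ift27* at 0.19 (adjusted p = 0.0304), both far under the fold threshold. None of 11 IFT-A and dynein-2 genes was called, nor was any of 11 Hedgehog pathway genes, the pathway that primary cilia relay in vertebrates. *Smo*, the signal transducer, had 372, 352 and 353 CPM in NT and 399, 397 and 403 in IFT88siRNA (log2 fold change 0.15, SE 0.0374, adjusted p = 0.0114), and its targets *Ptch1* and *Gli1* stood at 0.09 (adjusted p = 0.202) and -0.28 (adjusted p = 0.521).

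Before IL-1β, the same siRNA comparison called 109 genes higher (0.694%) and 226 lower (1.44%) of 15711 tested. The 0 h and 1 h comparisons share no library, and 52 genes were lower in both, 14.2% of the 366 and 23% of the 226, while 5 were higher in both, 18.5% of the 27 and 4.59% of the 109. The 366 genes lower at 1 h had a median log2 fold change of -0.37 at 0 h, against 0.0013 over all genes tested. *Ift88*, *Il1rl1* and *Fgf2* were called lower at both times, and *Scara5*, *Sparcl1* and *Kank4* higher at both. At 0 h *Sparcl1* had a log2 fold change of 0.67 and *Kank4* of 1.39.

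Over the first hour of IL-1β, NT cells had 1494 genes higher (9.51%) and 1543 lower (9.82%) than at 0 h. That response, the 1 h siRNA comparison and the test of their difference use the same NT libraries, so they are set side by side for single genes only. The test of the difference also holds the IFT88siRNA libraries of 1 h. A gene picked for its 1 h difference is therefore more likely to be called by it. The difference of the 1 h change between siRNA groups, the interaction of siRNA and time, was called above 0 for 18 genes (0.115%) and below 0 for 99 (0.63%). *Icam1* was 10.2-fold higher at 1 h than at 0 h in NT and 3.79-fold in IFT88siRNA (log2 difference -1.42, SE 0.22, adjusted p = 0.000353). *Vcam1* was 5.34-fold higher in NT and 2.41-fold in IFT88siRNA (log2 difference -1.15, SE 0.163, adjusted p = 0.000149), and *Cilp2* 9.14-fold and 2.66-fold (log2 difference -1.78, SE 0.207, adjusted p = 1.37e-05). A smaller rise in IFT88siRNA was also called for *Nfkbie* (log2 difference -0.78, SE 0.135, adjusted p = 0.00111), and the difference was below 0 for *Icam5* (log2 difference -0.71, SE 0.197, adjusted p = 0.0395) and *Pbx4* (log2 difference -1.28, SE 0.254, adjusted p = 0.00362). *Col10a1* was lower at 1 h than at 0 h in both groups, from means of 39.4 CPM in NT and 32.7 in IFT88siRNA, and more so in IFT88siRNA (log2 difference -0.74, SE 0.11, adjusted p = 0.000209). *Cxcl2*, *Tnf* and *Ccl20* had means of at most 0.252 CPM at 0 h in either group, so their fold over 0 h rests on few reads, and the interaction was not called (adjusted p = 0.663, 0.232 and 0.521).

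Some genes were apart between siRNA groups at 0 h and were not called at 1 h. *Atf3*, a stress-induced AP-1 partner, had means of 24.8 CPM in NT and 12.1 in IFT88siRNA at 0 h. At 1 h its libraries had 139, 143 and 155 in NT and 152, 153 and 161 in IFT88siRNA, a 5.88-fold and a 12.8-fold change (log2 difference 1.12, SE 0.0791, adjusted p = 1.07e-08). *Arc*, an early gene of neurons, went from means of 78.7 and 52.8 at 0 h to 682, 699 and 696 in NT and 745, 815 and 813 in IFT88siRNA (log2 difference 0.77, SE 0.064, adjusted p = 8.55e-08). *Dusp1* had a larger 1 h change in IFT88siRNA too (log2 difference 0.76, SE 0.15, adjusted p = 0.00363), at 0.58 and under the fold threshold without IFT88siRNA replicate 2 of 1 h. The EGF receptor ligand *Ereg* (log2 difference 0.69, SE 0.0758, adjusted p = 6.81e-06) and *Errfi1* (log2 difference 0.62, SE 0.0591, adjusted p = 9.56e-07) also had a larger rise over 0 h in IFT88siRNA, from means of 68.9 CPM in NT and 43.5 in IFT88siRNA for *Ereg* and 103 and 69.7 for *Errfi1*. *Sox9* and *Sox4* went the other way. Both were higher in IFT88siRNA at 0 h, with means of 22.8 against 34.9 for *Sox9* and 49.6 against 84.6 for *Sox4*, and were not called at 1 h (log2 difference -0.68, SE 0.0865, adjusted p = 4.42e-05 for *Sox9*, log2 difference -0.63, SE 0.138, adjusted p = 0.00862 for *Sox4*).

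**Figure D5:**
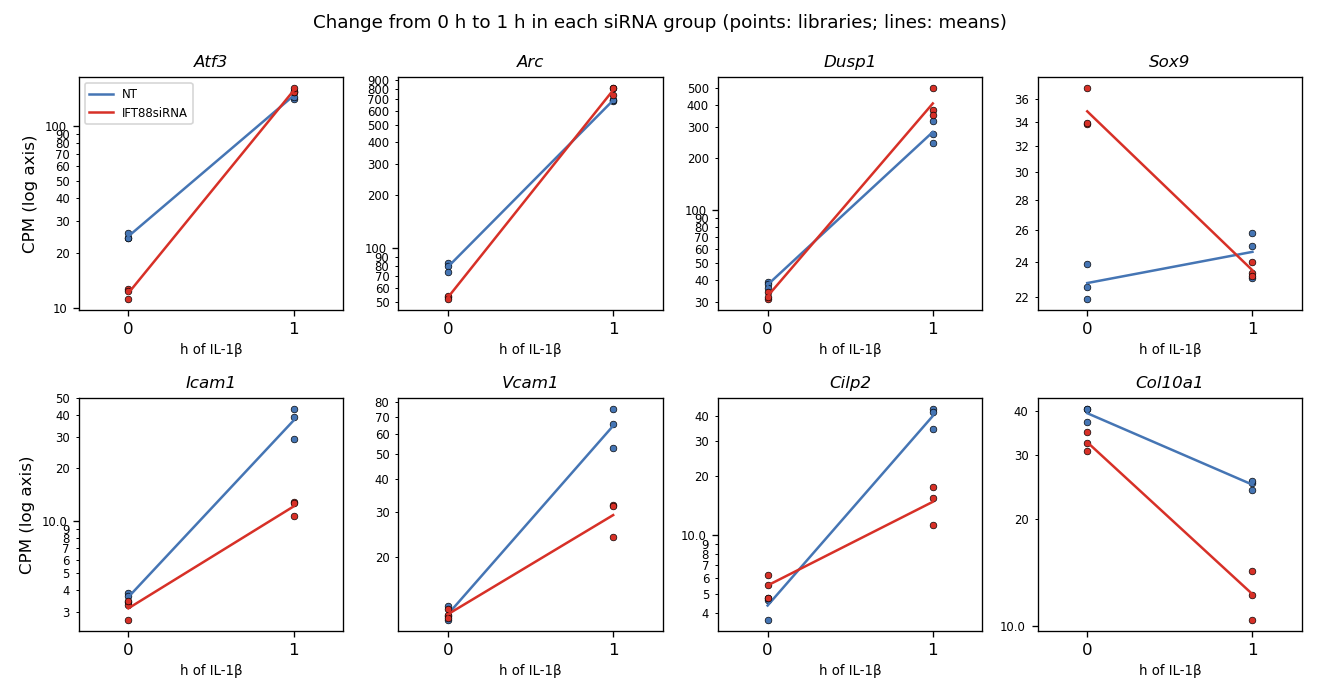
Levels in CPM (log axis) of 8 genes at 0 h and 1 h are shown for each library, with lines joining the means of NT and of IFT88siRNA. *Icam1*, *Vcam1* and *Cilp2* lie close together at 0 h and apart at 1 h, whereas *Atf3* and *Sox9* lie apart at 0 h and close together at 1 h.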

How the data were processed

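RNA from 36 libraries of a mouse chondrocyte line was analysed, of which the 6 of the 1 h time point carry the comparison and 6 of 0 h stand beside it. The authors took poly(A) RNA into paired-end libraries, aligned the reads with HISAT2 2.1.0 to GRCm38 and counted reads per Ensembl gene with featureCounts (Subread 1.6.3) at default settings, which ignore strand. The deposited counts are whole numbers with no normalization. TPM per gene, which the authors made with Salmon 0.9.1, were used for levels and for an alternative test.

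Groups came from the sample labels. The tests were run with edgeR 4.0.16 under R 4.3.3 (TMM, filterByExpr, quasi-likelihood F-test, two-sided, Benjamini-Hochberg over all genes tested), on the 6 libraries for 1 h and on the 12 libraries of 0 h and 1 h for 0 h, for the NT response and for the interaction. The code was tested on simulated counts. Total counts were 19337022 to 27468632 per library at 1 h, and since no molecular identifiers were used, this depth bounds only the counting error. Alternatives were DESeq2 1.42.0, other scalings, no filter on low counts, a replicate block, a fit over all 36 libraries, each library left out, and limma 3.58.1 on log2(TPM + 1) or log2(TPM + 0.1), with genes kept at a TPM of 1 or more in 3 libraries. The share of TEC, antisense and sense-intronic counts as a covariate and protein-coding genes alone were added after the data were seen. Named genes are those the study names, the 10 largest rises and 10 largest falls with no overlap and a mean count of at least 50, the called or most abundant 3 members of each list, and the 5 largest interactions in each direction. Members of lists named beyond this were chosen after their values were seen. Some genes that this rule names are not reported here. The comparison and the gene lists were chosen with earlier results of these data known. Promoters came from RefSeq (GRCm38.p6), read with Python 3.11.15.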

Additional observations from a re-analysis of the deposited data

Results flagged for a closer look

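The change from 0 h to 1 h of IL-1β differed between the siRNA groups for 117 genes by the edgeR test of the interaction, being more negative in IFT88siRNA for 99 and more positive for 18. Below, each value is the log2 difference of the 1 h change, IFT88siRNA minus NT. Among the 10 genes named for size, the change was more positive for *Atf3* (1.12), *Lyrm7* (0.83), *Arc* (0.77), *Dusp1* (0.76) and *Klhdc1* (0.72), and more negative for *Gm23935* (-3.21), *B3gnt2* (-1.84), *Cilp2* (-1.78), *Scand1* (-1.67) and the imprinted RNA *H19* (-1.43). Other genes named in the text for their 1 h difference and called by this test were *Icam1* (-1.42), *Slc6a12* (-1.40), *Pbx4* (-1.28), *Vcam1* (-1.15), *Tlr2* (-0.88), *Nfkbie* (-0.78), *Col10a1* (-0.74), *Icam5* (-0.71) and *Tnfaip2* (-0.66). The test contains that 1 h difference, so their calls are not separate support for it. Members of the gene lists that were not called at 1 h and were called by the interaction test were *Nr4a3* (0.69), *Ereg* (0.69) and *Errfi1* (0.62) above 0, and *Prg4* (-1.15), *Nkx3-2* (-0.86), *Adamts9* (-0.81), *Sox9* (-0.68), *Sox4* (-0.63) and *Gas1* (-0.59) below 0.

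*Gm23935*, *B3gnt2* and *Scand1* were each highest in the same pair of libraries. *Gm23935* had 618 CPM in NT replicate 1 at 1 h and 648 in IFT88siRNA replicate 2 at 0 h, and at most 225 in the other libraries of these groups. *Scand1* had 23.7 and 30.3 CPM in those libraries and *B3gnt2* 3.98 and 4.29. *Scand1* was not called without NT replicate 1 of 1 h (-1.35, adjusted p = 0.0776) or NT replicate 3 of 0 h (-1.53, adjusted p = 0.0654). *Lyrm7* was not called without any 1 of 9 of the 12 libraries (0.70 to 0.86), nor *Klhdc1* without any 1 of 5 (0.61 to 0.70). The cause of these was not tested.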

How the results depend on the processing

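No gene named here as called at 1 h turned its direction under any alternative, nor did the interactions named for size. A change of sign was not assessed for named genes that were not called, nor for the other interactions. Calls at 1 h (27 higher, 366 lower) came to 13 and 168 with DESeq2 (12 and 168 of them shared with edgeR), 45 and 428 with no filter on low counts, and 1294 and 1514 without the fold threshold. On log2(TPM + 1) they were 13 and 122, of which 5 and 64 were shared, on log2(TPM + 0.1) 12 and 121, and with no filter on TPM 10 and 41, where the share of falls was 80.4% in place of 93.1% and *Ift88* stood at -1.06 and was not called. The read-class share as a covariate gave 19 higher and 149 lower, and protein-coding genes alone 18 and 216. Leaving out each library gave 18 to 34 higher and 198 to 429 lower at 1 h, 257 to 361 calls at 0 h (335), 2883 to 3118 for the NT response (3037) and 84 to 140 for the interaction (117), with *Ift88* from -1.79 to -1.70. Calls at 0 h were 197 with DESeq2, 2907 without the fold threshold, 131 on log2(TPM + 1), 145 on log2(TPM + 0.1) and 102 with no filter on TPM. The interaction gave 634, 45, 40 and 29 under the last 4 of these, and the NT response 8734 without the fold threshold. DESeq2 size factors and upper-quartile scaling moved no count by over 1.5 times. The cause of these differences was not tested.

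Of 64 genes named and called at 1 h, *Ift88* aside, 21 lost the call without NT replicate 3, 13 without IFT88siRNA replicate 2, 11 without IFT88siRNA replicate 1, and 6 of the 57 with an adjusted p from DESeq2, which gave none for *Sele*, *Csf2* and *Cxcl3* among others. With the covariate 20 of the 64 lost it, and 35 of 61 on log2(TPM + 1). Lost with the covariate were, among others, *Lif* (-0.58), *Ifnb1* (-0.61), *Col2a1* (-0.48), *Npas4* (-0.52), *Cxcl11*, *Traf1* and *Fgf2*. Same-numbered libraries of the 2 groups had correlations of 0.034, 0.076 and 0.089 in their deviations from the group means. Those of differently numbered libraries ran from -0.118 to 0.035. The labels do not say whether the numbers pair the libraries, and this was not tested. With the replicate block 31 genes were higher and 427 lower, and the interaction gave 126. Depth limits the genes of few reads, since 167 of the 366 falls reached a mean count of 50.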

Other observations

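Some genes called lower at 1 h that were in no list belong to innate sensing, and they were chosen here after their values were seen. *Tlr2*, the receptor of bacterial lipoproteins, had 586, 553 and 603 CPM in NT and 399, 363 and 400 in IFT88siRNA (log2 fold change -0.59, SE 0.045, adjusted p = 3.19e-07). *Nod2*, a sensor of peptidoglycan, had 11.5, 9.38 and 13.5 against 7.61, 6.68 and 8.33 (log2 fold change -0.60, SE 0.124, adjusted p = 0.00313), and its kinase *Ripk2* had 95.2, 72.4 and 98 against 61.4, 45.7 and 63.6 (log2 fold change -0.64, SE 0.106, adjusted p = 0.000664). *Irf5*, a transcription factor of that arm, had 14.6, 10.4 and 13.9 against 7.78, 8.03 and 8.84 (log2 fold change -0.65, SE 0.117, adjusted p = 0.00116). The groups did not overlap for any of the 4, but all 4 lay near the fold threshold. *Tlr2* stood at -0.58, -0.56 and -0.54 without NT replicate 1, NT replicate 3 and IFT88siRNA replicate 2, *Nod2* at -0.46 and *Ripk2* at -0.56 without NT replicate 3, *Nod2* at -0.52 and *Ripk2* at -0.50 without IFT88siRNA replicate 2, and *Irf5* at -0.56 without NT replicate 1, none of them then called.

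Others kept their call without each of the 6 libraries. *Tnfaip2*, a TNF-inducible gene, had 352, 312 and 366 CPM in NT and 195, 197 and 204 in IFT88siRNA (log2 fold change -0.80, SE 0.0501, adjusted p = 6.6e-08), and *Ccrl2*, an atypical chemokine receptor, 3.48, 4.22 and 4.59 against 2, 1.78 and 2.55 (log2 fold change -0.97, SE 0.172, adjusted p = 0.00111). *Ltbp2*, which encodes a microfibril-associated protein, had 152, 162 and 175 against 72.8, 86.4 and 97.5 (log2 fold change -0.93, SE 0.0744, adjusted p = 5.37e-07), *Hk2*, the inducible hexokinase, 45.7, 40.1 and 45.5 against 28, 26.6 and 26.1 (log2 fold change -0.70, SE 0.0618, adjusted p = 1.87e-06), and *Slc6a12*, a betaine transporter, 8.28, 7 and 8.46 against 3.04, 2.63 and 4.46 (log2 fold change -1.23, SE 0.158, adjusted p = 8.49e-05). *Lgr5*, a receptor of R-spondins, was low at 1.71, 1.44 and 1.73 against 0.609, 0.27 and 0.68 CPM (log2 fold change -1.66, SE 0.293, adjusted p = 0.00109). None of the 6 overlapped between groups.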
